A study of Mus musculus with 9 samples.

Results

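Hypoxia response genes outside glycolysis were compared in mouse cells that carry an MLKL fusion protein, under control treatment, with a ligand that draws the fusion together, and after washout. The set holds 10 genes: Hif1a, Egln1 and Egln3, which belong to the oxygen-sensing circuit itself, and Bnip3, Bnip3l, Adm, Ddit4, Ndrg1, Ankrd37 and Car9, which are widely used as readouts of it. They were taken by name, with earlier results of these data known, and each was represented by the probe set with the highest mean among those that carried its symbol alone. This gave values for 8 of the 10 genes, out of 22180 genes measured in all. Bnip3l and Ankrd37 lay only on probe sets that also carried another symbol, and no value is given for them.

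The cells were hMLKL1-181-2Fv-NIH3T3, a line of the mouse embryonic fibroblast NIH3T3 that, by its name, carries residues 1 to 181 of human MLKL joined to 2 Fv domains. In necroptosis the pseudokinase MLKL executes cell death by damaging the plasma membrane, and B/B is a ligand that draws Fv domains together. All 3 groups carried the fusion and only treated cells received the ligand. The arrays do not measure the state of the fusion. Each group held 3 one-colour Affymetrix arrays. The control group received control treatment. The B/B 1 h group received 50 nM B/B for 1 h and consisted of sorted cells that bound annexin V, a marker of exposed phosphatidylserine. The washout group was treated and sorted likewise and followed by 6 h of washout at 3000 nM of a compound that the series design does not name. Sorting and harvest time of the control cells, separate cultures within a group and the oxygen level are not stated in the labels. Against control, the effects of B/B, sorting, time and, for washout, the 3000 nM compound cannot be told apart. Between B/B 1 h and washout, the effects of the removal of B/B, the compound and the 6 h of further time cannot be told apart either. The p-values measure only the spread between these arrays, which may be technical.

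The medians of the 9 arrays ranged from 4.60 to 4.68 in log2 units, with base 2 inferred from the values. All 12 fibroblast markers measured lay above the lowest 30% of genes, while 6 of 11 leukocyte, 3 of 9 epithelial and 3 of 10 endothelial markers lay within it. The mean log2 value of the fibroblast markers ranged from 10.01 to 10.04 in control, from 10.00 to 10.06 at B/B 1 h and from 9.65 to 9.66 after washout, when 7 of the 12 fell and 1 rose against control by the test used below, or 66.7%, beside 26.2% of all genes. The leukocyte markers averaged 4.74 to 4.81, 4.85 to 4.92 and 4.83 to 4.87 in the same order. This average covers unlike genes. At 1 h 3 of the 11 rose and 0 fell, and between control and washout 1 rose and 2 fell. Cd14 rose by 0.61 at 1 h (limma adjusted p = 6.3e-04) and by 1.47 between control and washout (limma adjusted p = 3.0e-07). Cd68 rose by 0.51 at 1 h (limma adjusted p = 0.00514), and its difference between control and washout was -0.08 (limma adjusted p = 0.517). The part of these shifts in the results for the hypoxia genes was not tested. All 9 arrays come from the same cell line, and in bulk RNA a change in some of its cells and a change in every cell cannot be told apart.

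Cells sense oxygen through the hydroxylation of hypoxia-inducible factor (HIF) alpha subunits. With oxygen present, prolyl hydroxylases such as Egln1 and Egln3 mark Hif1a protein for capture by the von Hippel-Lindau protein, Vhl, and for destruction by the proteasome. Without oxygen the subunit persists, pairs with Arnt and binds hypoxia response elements, whose core is ACGTG or GCGTG, near genes such as Bnip3, Adm, Ndrg1 and Car9. Egln3 is itself among the targets. Hif1a is governed mainly at the level of its protein, which arrays do not measure, and several of the targets also answer to other stress pathways.

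The promoters of the 3 genes that fell more than 2-fold after washout and of Egln3, which rose, are printed below to show the cores that genes of opposite behaviour carried. The sequences are those of RefSeq on GRCm38.p6, read 5′ to 3′ on the gene's own strand, and span the 250 bases before the transcription start. Capitals mark ACGTG or GCGTG on the printed strand and their reverse complements CACGT and CACGC, which are the same cores on the other strand. Bnip3 comes from the minus strand at chr7:138909507-138909756, Ddit4 from the minus strand at chr10:59951771-59952020, Adm from the plus strand at chr7:110627407-110627656 and Egln3 from the minus strand at chr12:54203875-54204124.
Bnip3: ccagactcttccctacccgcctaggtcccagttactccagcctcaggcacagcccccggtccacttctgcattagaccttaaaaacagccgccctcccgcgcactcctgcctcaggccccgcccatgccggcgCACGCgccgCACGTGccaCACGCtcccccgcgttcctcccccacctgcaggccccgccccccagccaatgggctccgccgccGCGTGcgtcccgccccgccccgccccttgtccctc
Ddit4: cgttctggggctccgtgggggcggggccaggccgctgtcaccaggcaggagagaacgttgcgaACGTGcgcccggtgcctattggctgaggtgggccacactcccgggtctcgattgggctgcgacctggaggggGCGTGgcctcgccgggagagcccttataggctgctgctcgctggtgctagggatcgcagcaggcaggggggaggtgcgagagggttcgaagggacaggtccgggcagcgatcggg
Adm: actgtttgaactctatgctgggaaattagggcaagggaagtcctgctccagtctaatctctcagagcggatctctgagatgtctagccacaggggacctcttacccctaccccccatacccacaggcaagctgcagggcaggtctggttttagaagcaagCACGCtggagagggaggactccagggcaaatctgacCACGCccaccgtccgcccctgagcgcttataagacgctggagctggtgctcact
Egln3: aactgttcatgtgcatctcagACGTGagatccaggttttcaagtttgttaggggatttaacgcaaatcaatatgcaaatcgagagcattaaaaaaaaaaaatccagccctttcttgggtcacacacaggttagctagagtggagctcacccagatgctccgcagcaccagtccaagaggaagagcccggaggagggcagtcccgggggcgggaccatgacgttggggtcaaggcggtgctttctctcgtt
Bnip3 had 5 matches, of which 2 are the strands of the palindrome CACGTG, whose first base is at position -108 from the start, and the match nearest to the start lay at positions -35 to -31. Ddit4 had 1 ACGTG and 1 GCGTG, Adm had 2 GCGTG on the other strand, and Egln3 had 1 ACGTG, at positions -229 to -225.

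Promoters of 8 of the 10 genes were in the RefSeq table, in windows of 250 bases before to 50 after the start, and all 8 held at least 1 core on either strand. These are not the 8 measured genes, since Ndrg1 and Bnip3l had no promoter there and Ankrd37 is included. Hif1a had 3 matches, of which 2 are the strands of a CACGTG palindrome, Ankrd37 had 4, Egln1 2 and Car9 1. Of all 32851 promoters of that length, 43.8% held either core, 19.6% ACGTG and 32.4% GCGTG. The windows of the 8 genes were 54.7% to 86% G or C, and these shares were not taken over promoters of like content. A match describes the letters and does not show binding, and the cores were present both in genes that fell and in Egln3.

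Group differences were tested with limma over all 22180 genes, with Benjamini-Hochberg adjustment within each comparison and a threshold of 0.05. At 1 h of B/B, 2 of the 8 genes passed the threshold, Ndrg1 upward and Ddit4 downward. Of all genes, 2.89% passed, 1.01% higher and 1.88% lower. After washout all 8 differed from control, 6 lower and 2, Egln3 and Ndrg1, higher, where 26.2% of all genes passed, 11.7% lower and 14.5% higher. The means of the 8 genes lay at percentiles 59.9 to 97.6, so the share over all genes, dim ones included, is not a like background. Because the genes were chosen with earlier results of these data known, the counts and shares here describe them and are not an independent test. Ndrg1 and Car9 are counted by their brighter probe sets, and the other probe set of each, given below, did not share this call. The brighter Car9 probe set is numbered among genes of the strand opposite to that of Car9, and which transcript it measures was not tested. Bnip3, Ddit4 and Adm were each called and at least 2-fold lower, which held for 0.424% of all genes. Between B/B 1 h and washout, a comparison that shares arrays with both others, 6 genes were lower, and Egln3 and Ndrg1 were again higher, where 28.6% of all genes passed, 12% lower and 16.6% higher. The arrays of the 2 groups did not overlap for 4 of the 8 genes at 1 h, against 21.3% of all genes. They did not overlap for any of the 8 in either comparison with washout, against 38% of all genes for washout and control and 39.6% for washout and B/B 1 h. The median log2 difference of the 8 genes was -0.03 at 1 h, -0.28 between washout and control and -0.30 between washout and B/B 1 h, beside 0.00, 0.00 and -0.02 over all genes.

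**Figure D1:**
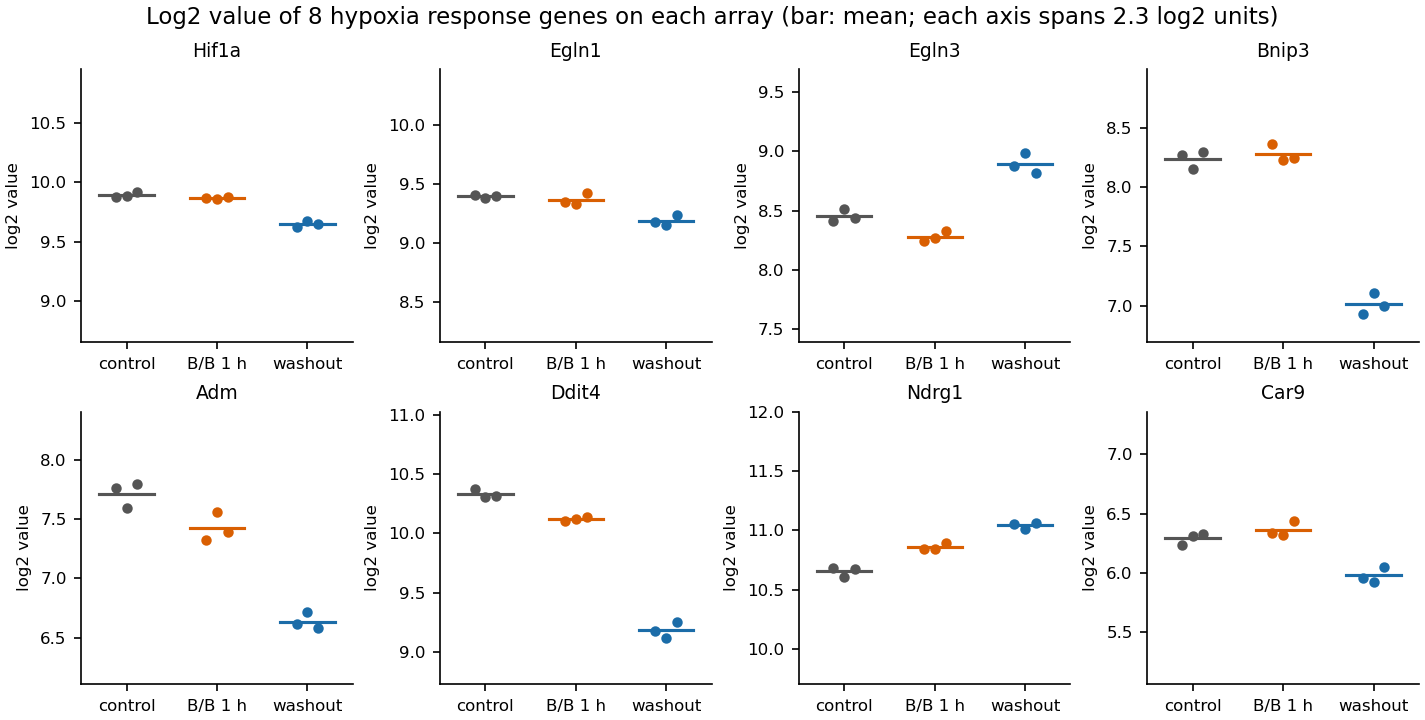
Log2 value (y axis) of 8 hypoxia response genes on each of 3 control, 3 B/B 1 h and 3 washout arrays (x axis), with points for arrays and bars for group means. Bnip3, Adm and Ddit4 sit far lower after washout, Egln3 and Ndrg1 sit higher, and every washout point lies outside the range of the other groups.

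Hif1a encodes the oxygen-regulated subunit of the transcription factor. Its log2 values were 9.88, 9.88 and 9.92 on the control arrays, 9.87, 9.86 and 9.88 at B/B 1 h, and 9.63, 9.68 and 9.65 after washout. The control and B/B 1 h arrays lay close together, and the 3 washout arrays lay below all others. The log2 difference at 1 h was -0.02 ± 0.038 (SE, n = 3 per group), with a 95% interval of -0.11 to 0.06 and a limma adjusted p of 0.768. After washout Hif1a fell by 0.24 ± 0.038 against control (limma adjusted p = 9.8e-04), a 1.18-fold drop, and by 0.22 against B/B 1 h (limma adjusted p = 0.00173). Its fall was smaller than those of Bnip3, Ddit4 and Adm.

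Egln1, also called PHD2, is the main prolyl hydroxylase that acts on Hif1a in most cells. It stood at 9.41, 9.38 and 9.39 in control, 9.35, 9.33 and 9.43 at B/B 1 h, and 9.18, 9.15 and 9.24 after washout. The first 2 groups overlapped and the washout arrays lay below both. The difference at 1 h was -0.03 ± 0.044, with a 95% interval of -0.13 to 0.07 (limma adjusted p = 0.784). After washout Egln1 fell by 0.21 against control (limma adjusted p = 0.00632) and by 0.18 against B/B 1 h (limma adjusted p = 0.0125). The last call was lost when each array was centred on its median (limma adjusted p = 0.0711).

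Egln3, also called PHD3, is a hydroxylase that hypoxia induces strongly in many cells. Here it went the other way from Egln1. The 3 control arrays read 8.41, 8.51 and 8.44, the B/B 1 h arrays 8.24, 8.27 and 8.33, and the washout arrays 8.88, 8.99 and 8.82. The B/B 1 h arrays lay lowest and the washout arrays highest, with no overlap among the 3 groups. The difference at 1 h, -0.18 ± 0.055, did not pass the threshold (limma adjusted p = 0.126). After washout Egln3 rose by 0.44 against control (limma adjusted p = 2.3e-04), or 1.36-fold, and by 0.61 against B/B 1 h (limma adjusted p = 2.5e-05).

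Bnip3, a mitochondrial outer membrane protein that recruits the autophagy machinery to mitochondria, had the largest difference of the 8 genes after washout. Its values were 8.27, 8.15 and 8.30 in control, 8.37, 8.23 and 8.25 at B/B 1 h, and 6.93, 7.11 and 7.00 after washout. The first 2 groups were interleaved, and the highest washout array lay more than 1 log2 unit below the lowest of the other 6. At 1 h the difference was 0.04 ± 0.063, with a 95% interval of -0.10 to 0.18 (limma adjusted p = 0.759). Bnip3 then fell by 1.23 ± 0.063 against control (limma adjusted p = 1.2e-06), which is 2.34-fold lower, and by 1.27 against B/B 1 h (limma adjusted p = 7.7e-07).

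Of 13 other measured mitophagy receptors, adaptors and LC3 or GABARAP family genes, 0 passed the limma threshold at 1 h, with 1 higher and 3 lower at an unadjusted p under 0.05, and 1 rose and 3 fell between control and washout. The shares called, 0% and 30.8%, stand beside 2.89% and 26.2% of all genes. Fkbp8, another mitophagy receptor, fell by 0.49 (limma adjusted p = 2.1e-05), and Map1lc3b, an LC3 protein of the autophagosome membrane, rose by 0.33 (limma adjusted p = 3.8e-04). The list's median difference after washout was -0.04.

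Ddit4, also called REDD1, restrains the growth kinase complex mTORC1 when oxygen or energy is short and is also induced by other stresses. It read 10.37, 10.30 and 10.32 in control, 10.10, 10.12 and 10.14 at B/B 1 h, and 9.18, 9.12 and 9.25 after washout. The 3 groups were ordered without overlap, control highest and washout lowest, with the larger step after washout. Ddit4 fell by 0.21 ± 0.046 at 1 h (limma adjusted p = 0.0439), but this call was lost without any single control or B/B 1 h array and without washout replicate 1, with limma adjusted p up to 0.126 and a difference of -0.22 to -0.19. After washout it fell by 1.15 against control (limma adjusted p = 2.6e-07), which is 2.22-fold lower, and by 0.94 against B/B 1 h (limma adjusted p = 6.6e-07).

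Of 9 other mTORC1 inhibitors measured, 0 passed the limma threshold at 1 h, with 0 higher and 1 lower at an unadjusted p under 0.05, and 2 rose and 2 fell between control and washout. Sesn1, a sestrin that links amino acid shortage to mTORC1, fell by 0.52 (limma adjusted p = 3.5e-04). Deptor, which binds and inhibits mTOR, rose by 0.37 (limma adjusted p = 0.00217). The shares of the list called, 0% at 1 h and 44.4% between control and washout, stand beside 2.89% and 26.2% of all genes.

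Adm encodes adrenomedullin, a secreted peptide that widens blood vessels. Its values were 7.76, 7.59 and 7.79 in control, 7.32, 7.56 and 7.39 at B/B 1 h, and 6.61, 6.71 and 6.58 after washout. The lowest control array, 7.59, lay just above the highest B/B 1 h array, 7.56, and all washout arrays lay well below both. The difference at 1 h was -0.29 ± 0.076, with a 95% interval of -0.46 to -0.12, and did not pass the threshold (limma adjusted p = 0.0792). It passed when each array was centred on its median (-0.34, limma adjusted p = 0.0469) and with a mean-variance trend (limma adjusted p = 0.0429). After washout Adm fell by 1.08 against control (limma adjusted p = 7.2e-06), which is 2.11-fold lower, and by 0.79 against B/B 1 h (limma adjusted p = 4.3e-05).

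Adrenomedullin signals through the receptor Calcrl together with a partner of the RAMP family. Of 5 genes measured of this system, 0 rose and 1 fell at 1 h, 1 rose and 0 fell between control and washout, and 2 rose and 0 fell between B/B 1 h and washout. These are 20%, 20% and 40% of the list, beside 2.89%, 26.2% and 28.6% of all genes. Calcrl fell by 0.30 ± 0.066 at 1 h (limma adjusted p = 0.0487), a call lost without any single control or B/B 1 h array or washout replicate 2, with limma adjusted p up to 0.157. It rose by 0.55 between B/B 1 h and washout (limma adjusted p = 1.7e-04), which left it 0.25 above control (limma adjusted p = 0.0182). That last call was lost without control replicate 1 or 2 or washout replicate 3, with limma adjusted p up to 0.0630. Ramp3 rose by 0.22 between B/B 1 h and washout (limma adjusted p = 0.0158), a call lost without washout replicate 2 or 3 (limma adjusted p = 0.0507 and 0.0524). The difference between control and washout was -0.01 for Ramp1, -0.07 for Ramp2, 0.02 for Ramp3 and 0.05 for Adm2, a related peptide, and none of these 4 passed the threshold, with limma adjusted p between 0.565 and 0.985. This direction changed for Ramp1, Ramp2 and Ramp3 when single arrays were left out and, for Ramp3, when arrays were rescaled, and it did not change for Adm2 under the alternatives run.

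**Figure D2:**
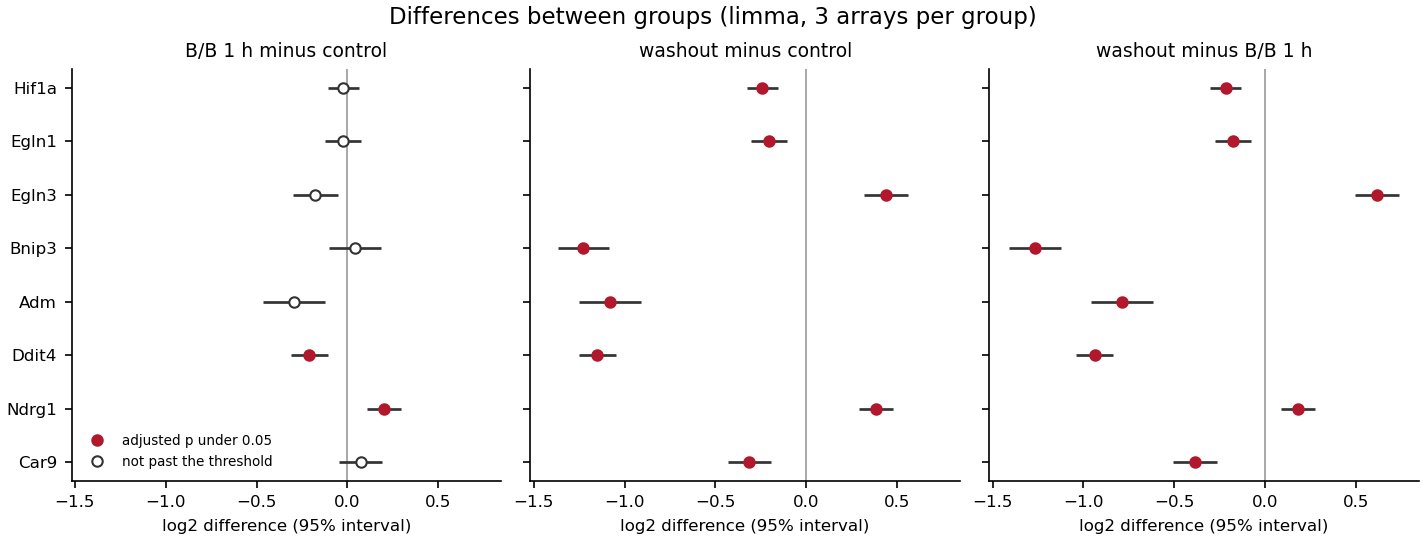
Log2 difference (x axis) with its 95% interval for 8 genes in each of 3 comparisons, filled where the limma adjusted p was under 0.05. At 1 h of B/B 2 of 8 genes are filled, and in both comparisons with washout all 8 are filled, with Bnip3, Ddit4 and Adm farthest to the left against control.

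Ndrg1, a cytoplasmic stress-responsive protein that hypoxia induces in many cell types, had 2 probe sets that disagreed. The one with the higher mean read 10.69, 10.61 and 10.68 in control, 10.84, 10.84 and 10.89 at B/B 1 h, and 11.05, 11.01 and 11.06 after washout, rising from group to group without overlap. The other read 6.89, 6.44 and 6.92 in control, 6.54, 6.95 and 6.72 at B/B 1 h, and 6.20, 6.16 and 6.49 after washout, with the first 2 groups interleaved and the washout arrays mostly lower. One washout array, at 6.49, lay above the lowest control array.

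By the first probe set Ndrg1 rose by 0.20 ± 0.042 at 1 h (limma adjusted p = 0.0357), by 0.38 between control and washout (limma adjusted p = 9.5e-05), or 1.31-fold, and by 0.18 between B/B 1 h and washout (limma adjusted p = 0.00796). The call at 1 h was lost when any 1 of the 9 arrays was left out, with limma adjusted p between 0.0546 and 0.108 and a difference of 0.18 to 0.22. It was also lost when each array was centred on its median (0.15, limma adjusted p = 0.125). By the second probe set the differences were -0.01 ± 0.15 (limma adjusted p = 0.974), -0.47 (limma adjusted p = 0.0445) and -0.46 (limma adjusted p = 0.0466), so that both comparisons with washout were called in the opposite direction. With the 2 probe sets averaged, the difference between control and washout was -0.04 (limma adjusted p = 0.805).

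The 2 Ndrg1 probe sets lie in stretches of the array whose neighbours are genes of opposite strands. Probe set numbers largely follow chromosome and strand. Of 17946 probe sets with a known gene strand, 16632 lay where a large majority of the 40 nearest neighbours in number shared a strand. Among these 16632, the RefSeq strand of the gene was that of this majority for 96.5%. All 40 neighbours of the first Ndrg1 probe set were genes of the minus strand, and 38 of 40 neighbours of the second were genes of the plus strand. What each probe set hybridizes to was not tested. Of the 3 other NDRG family genes, Ndrg3 fell by 0.29 between control and washout (limma adjusted p = 6.9e-04), Ndrg4 rose by 0.41 (limma adjusted p = 0.00461), and the difference of Ndrg2 was -0.04 (limma adjusted p = 0.770).

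Car9, a carbonic anhydrase on the cell surface and a common tissue marker of hypoxia, also had 2 probe sets. The one with the higher mean read 6.24, 6.31 and 6.33 in control, 6.33, 6.32 and 6.44 at B/B 1 h, and 5.96, 5.92 and 6.05 after washout. The washout arrays lay below all others, while control and B/B 1 h overlapped. By this probe set the difference at 1 h was 0.07 ± 0.053 (limma adjusted p = 0.498), and Car9 fell by 0.31 between control and washout (limma adjusted p = 0.00158) and by 0.39 between B/B 1 h and washout (limma adjusted p = 4.0e-04).

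The other Car9 probe set read 3.86, 3.88 and 3.80 in control, 3.89, 3.86 and 3.86 at B/B 1 h, and 3.86, 3.92 and 3.69 after washout, so that the 3 groups overlapped throughout. Its mean lay in the lowest 30% of genes, and its differences were 0.02, -0.02 and -0.05 in the 3 comparisons, with limma adjusted p between 0.626 and 0.875. Car9 is a gene of the plus strand. All 40 neighbours of the brighter probe set were genes of the minus strand, whereas 35 of 40 neighbours of the dimmer one were genes of the plus strand. In the gene table of GRCm38.p6, Car9 shares 1722 bases with Arhgef39 and 4 with Tpm2, the genes between which the brighter probe set is numbered. Arhgef39 differed by 0.07 between control and washout (limma adjusted p = 0.711), and Tpm2, a tropomyosin, fell by 0.45 (limma adjusted p = 2.1e-04). Which transcript the brighter Car9 probe set measures was not tested, and the fall is given as that of this probe set.

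A second, dimmer probe set also carried the symbol Hif1a, a plus-strand gene, and 39 of its 40 neighbours were genes of the minus strand. It read 5.24, 5.32 and 5.35 in control, 5.11, 5.13 and 5.17 at B/B 1 h, and 4.98, 4.87 and 4.93 after washout. The direction after washout was that of the brighter probe set, with a fall of 0.38 against control (limma adjusted p = 2.6e-04), while the difference at 1 h was -0.17 (limma adjusted p = 0.101). Hif1a shares 12831 bases with the long noncoding gene Gm15283 in the same gene table.

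**Figure D3:**
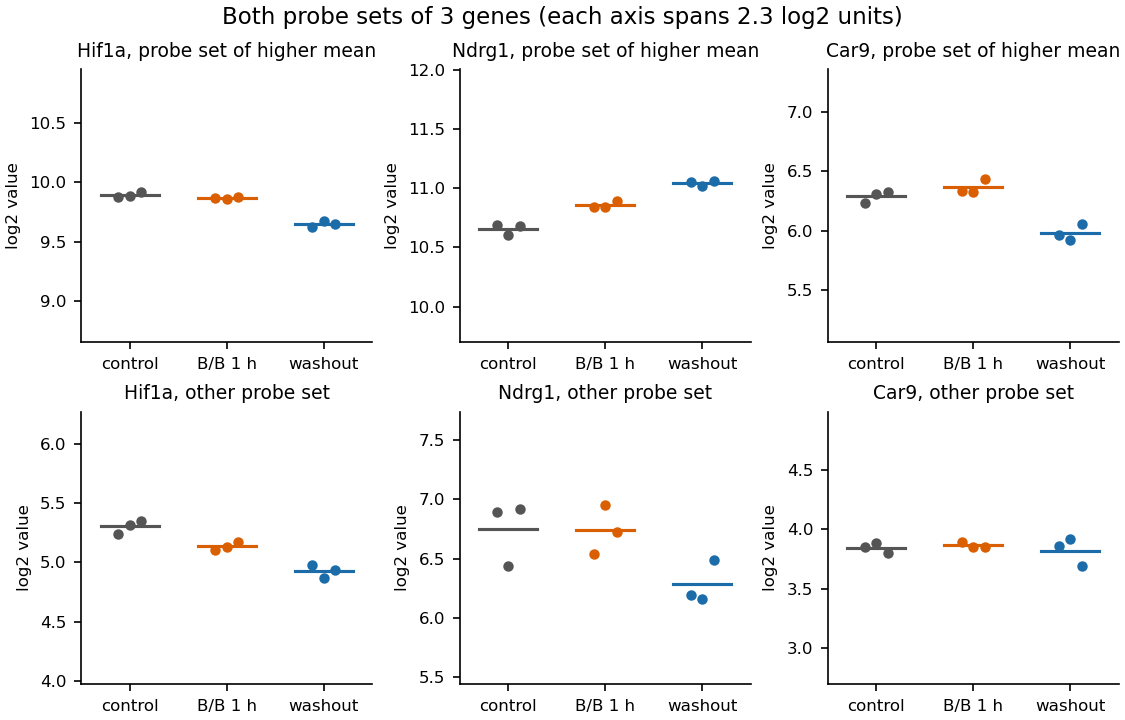
Log2 value (y axis) on each array of both probe sets of Hif1a, Ndrg1 and Car9 by group (x axis), with bars for means. The Ndrg1 probe sets move in opposite directions after washout, from 10.66 to 11.04 and from 6.75 to 6.28, and the dimmer Car9 probe set stays between 3.69 and 3.92.

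Among 12 other carbonic anhydrases measured, 0 rose and 1 fell at 1 h, 3 rose and 2 fell between control and washout, with a list median of -0.03, and 3 rose and 1 fell between B/B 1 h and washout. In that order, 8.33%, 41.7% and 33.3% of the list were called, beside 2.89%, 26.2% and 28.6% of all genes. Car6, a secreted form, fell by 0.38 at 1 h (limma adjusted p = 0.0421), a call lost in 8 of the 9 fits that left out 1 array, with limma adjusted p up to 0.145. It rose by 0.85 between B/B 1 h and washout (limma adjusted p = 3.8e-05), which left it 0.47 above control (limma adjusted p = 0.00167). Car13, a cytosolic form, rose by 0.33 between control and washout (limma adjusted p = 7.5e-04), while Car11, a related protein without catalytic activity, fell by 0.34 (limma adjusted p = 0.00444).

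The rest of the oxygen-sensing circuit was split between directions. Of 16 measured genes, 1 rose and 0 fell at 1 h, when the riser was Cited2, which competes with HIF for its coactivators and increased by 0.38 (limma adjusted p = 0.00103) and then fell by 0.28 between B/B 1 h and washout (limma adjusted p = 4.9e-04). Between control and washout 5 rose and 5 fell, with a median of 0.06, and between B/B 1 h and washout 6 rose and 5 fell. The shares called at 1 h and in these comparisons were 6.25%, 62.5% and 68.8%, beside 2.89%, 26.2% and 28.6% of all genes. Hif1an, the asparaginyl hydroxylase that blocks coactivator binding, rose by 0.61 (limma adjusted p = 2.2e-04), and the coactivator Ep300 rose by 0.41 (limma adjusted p = 1.8e-04) between control and washout. Vhl rose by 0.29 (limma adjusted p = 0.0134), a call lost without washout replicate 3 (limma adjusted p = 0.0516). Eloc and Elob, the elongins of the Vhl ubiquitin ligase, fell by 0.42 and 0.35 (limma adjusted p = 3.1e-04 and 4.8e-04). Egln1 and Egln3 moved in opposite directions within a circuit whose other genes were also divided.

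Of 40 other HIF target genes measured, 2 rose and 3 fell at 1 h, 8 rose and 11 fell between control and washout, and 10 rose and 11 fell between B/B 1 h and washout, with medians of -0.01, -0.02 and -0.04. Calls thus covered 12.5%, 47.5% and 52.5% of these targets, beside 2.89%, 26.2% and 28.6% of all genes. Bhlhe40, a transcriptional repressor, fell by 0.78 at 1 h (limma adjusted p = 2.0e-05) and fell by 1.94 between control and washout (limma adjusted p = 1.3e-08). Vegfa, the vascular growth factor, fell by 0.32 at 1 h (limma adjusted p = 0.00538) and rose by 0.37 between B/B 1 h and washout (limma adjusted p = 1.8e-04), when its difference from control was 0.05 (limma adjusted p = 0.536). Higd1a, a mitochondrial protein, fell by 0.55 between control and washout (limma adjusted p = 0.00261). Angptl4, a secreted inhibitor of lipoprotein lipase, rose by 1.55 between control and washout (limma adjusted p = 4.9e-07). Edn1, the vasoconstrictor endothelin, rose by 1.07 at 1 h (limma adjusted p = 0.00456) and by 1.09 between control and washout (limma adjusted p = 3.5e-04), and Hmox1, the heme oxygenase, rose by 0.50 (limma adjusted p = 5.0e-04) and 0.97 (limma adjusted p = 9.1e-07) in the same comparisons. After washout the targets held genes lower than control, as were Bnip3 and Adm, and genes higher than control, as was Egln3.

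**Figure D4:**
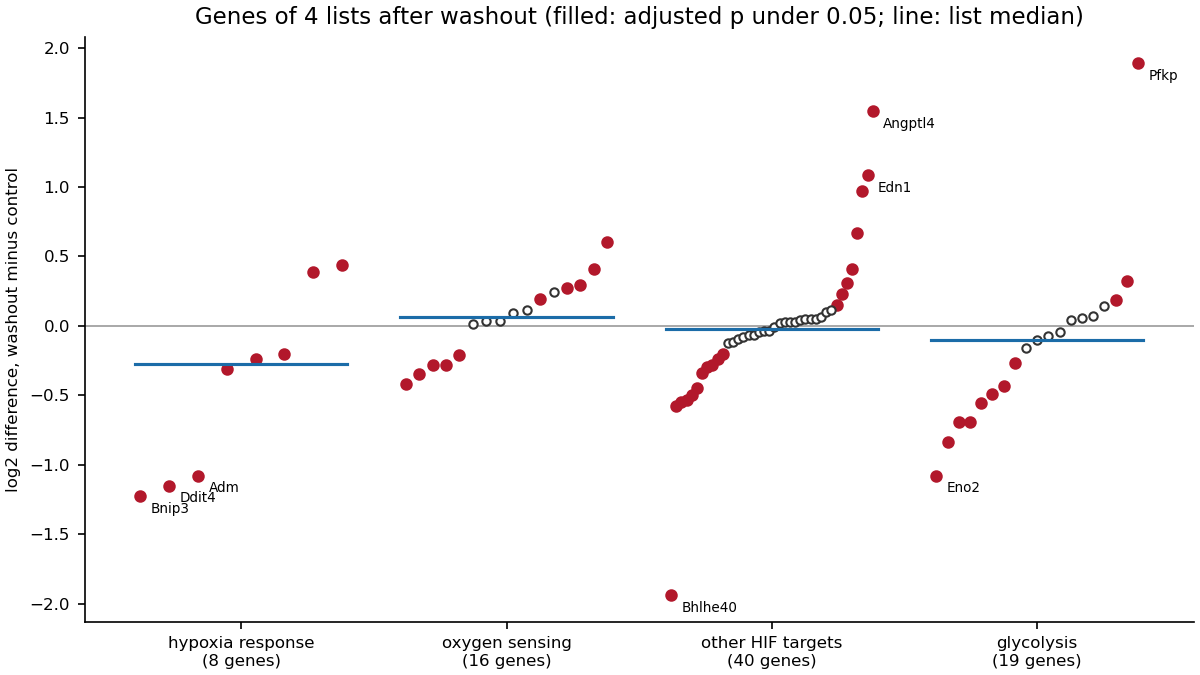
Log2 difference between washout and control (y axis) for each measured gene of 4 lists (x axis), filled where the limma adjusted p was under 0.05, with a line at each list's median. The 8 hypoxia response genes have a median of -0.28, the 16 oxygen-sensing genes 0.06, the 40 other HIF targets -0.02 and the 19 glycolysis genes -0.10, and each list has genes on both sides of 0.

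The genes whose pattern was nearest to each of the 3 genes with the widest range of group means were found over the 9 arrays, by the root mean square log2 difference after subtracting each gene's control mean. The nearest to Bnip3 was S1pr3, a sphingosine 1-phosphate receptor, at 0.0580, followed by F3, the tissue factor of blood clotting, at 0.0774 and by Sorbs3, a focal adhesion protein, at 0.0901. Their differences from control were 0.02 to 0.05 at 1 h and -1.27 to -1.20 after washout, values that the choice by likeness to Bnip3 fixes. The nearest to Ddit4 were Eno2, a neuronal enolase, at 0.0636, Copz2, a vesicle coat subunit, at 0.0657 and Lgals9, a galectin, at 0.0691. The nearest to Adm were 9230114K14Rik at 0.101, the glutamate receptor gene Gria3 at 0.101 and again Eno2 at 0.101. This is a measure of likeness on 9 shared arrays and carries no test.

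**Figure D5:**
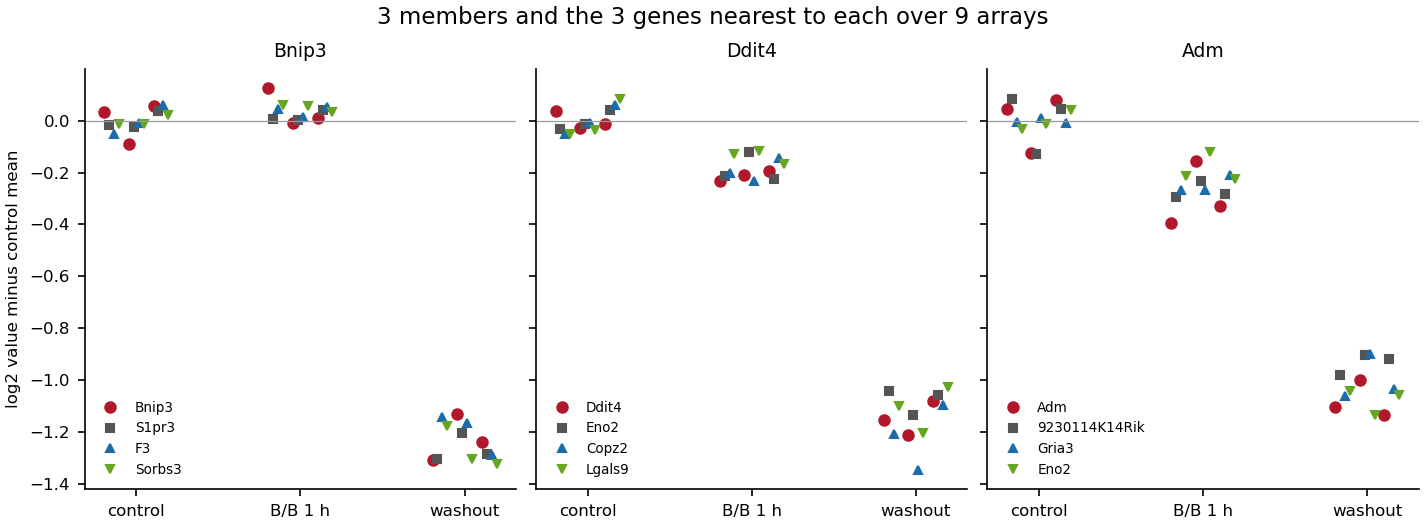
Log2 value minus the gene's control mean (y axis) on each of 9 arrays by group (x axis) for Bnip3, Ddit4 and Adm, each with its 3 nearest genes. The Bnip3 set stays near 0 at B/B 1 h and the Ddit4 and Adm sets lie slightly below 0, and all 3 sets lie near -1 or lower after washout.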

How the data were processed

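Total RNA was extracted with Trizol and prepared as biotinylated cRNA for 9 one-colour Affymetrix arrays, per the labels' protocols. The submitters' processing notes name Partek 6.6. How probes were summarized and normalized is, in the sources used here, not given. The log2 values deposited by the authors are summaries per probe set, with base 2 inferred from their range, so every fold rests on that reading. A single gene symbol was carried by 23521 of the 41345 probe sets, while 1814 had several and 16010 had none. The former gave 22180 genes, each by its probe set of highest mean over all arrays.

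Groups came from the treatment labels, 3 arrays each, and this number limits the precision. Group means were fitted to all 9 arrays at once with limma 3.58.1 (statmod 1.5.0, R 4.3.3), which left 6 residual degrees of freedom beside 3.38 from the prior. Log2 differences had a median standard error of 0.0636. Adjusted p-values come from Benjamini-Hochberg adjustment over all genes in each comparison. The code was tested on simulated data.

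The genes and lists were chosen with earlier results of these data known. Of the lists, genes named were taken from up to 3 highest and 3 lowest past the threshold without overlap between groups, and every measured gene of the adrenomedullin receptor and NDRG lists was named. Alternatives were 17, among them 9 that leave out 1 array each, and 3 more, chosen after seeing the data, that let the other Hif1a, Ndrg1 or Car9 probe set stand for its gene. Gene lists held 17 oxygen-sensing, 43 HIF target, 22 glycolysis, 15 mitophagy, 9 mTORC1 inhibitor, 5 adrenomedullin receptor, 3 NDRG and 14 carbonic anhydrase genes and markers of 4 cell types. Of these, markers of epithelium had 0 rises and 1 fall and markers of endothelium 1 rise and 0 falls between control and washout. Leukocyte markers had 1 rise and 2 falls there and 3 rises and 0 falls at 1 h. Between control and washout 11.1% of epithelial, 10% of endothelial and 27.3% of leukocyte markers were called, beside 26.2% of all genes. At 1 h 27.3% of leukocyte markers were called, beside 2.89% of all genes.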

Additional observations from a re-analysis of the deposited data

How the results depend on the processing

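The counts of hypoxia response genes called after washout stayed between 7 and 8 of 8 under all 20 alternatives in both comparisons with washout. At 1 h the count of 2 became 1 with quantile normalization, with probe sets averaged and with the other Ndrg1 probe set, 0 with only the 2 groups compared and with adjusted p under 0.01, and 0 to 1 when 1 array was left out. It became 3, with Adm added, under a mean-variance trend, and stayed 2 with arrays centred on their medians, where Adm and Ddit4 were called lower and Ndrg1 was not called. The count of oxygen-sensing genes called at 1 h, 1, became 2 with arrays centred on their medians and with the lowest 30% of genes left out, and 3 with a mean-variance trend. The other counts for both lists of pathway genes stayed within 1.5 times. Signs turned for 3 differences at 1 h, of which Hif1a and Bnip3 were near 0 and Ndrg1, at 0.20, was called: Hif1a was 1.6e-04 with quantile normalization, Bnip3 was -0.00937 with arrays centred and ranged from -0.00308 to 0.0701 when 1 array was left out, and Ndrg1 was -0.0128 with its other probe set. Ndrg1 turned to -0.0424 against control and -0.14 against B/B 1 h with probe sets averaged, and to -0.47 and -0.46 with its other probe set. Ramp3 turned to -0.00478 with quantile normalization and -0.00183 with arrays centred, and leaving out 1 array gave differences after washout of -0.0958 to 0.0759 for Ramp1, -0.142 to 0.0305 for Ramp2 and -0.00190 to 0.0349 for Ramp3. The cause was not tested in any of these. The largest shift of the median of all genes under another scaling was -0.05. Of 90 differences of other genes, 69 kept their call and direction throughout, and 90 of 1530 values lost the call. No paired analysis was possible because the labels give no replicate numbers. The replicate numbers used in this text follow the order of the samples within each group and were not given by the submitters. No depth is given for arrays, and probe sets near background, such as the dimmer Car9 probe set, limit what can be seen.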

Other observations

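Glycolysis and glucose uptake genes, some of which are also HIF targets, differed among themselves after washout as the other hypoxia genes did. Of 19 measured, 0 passed the limma threshold at 1 h, with 0 higher and 3 lower at an unadjusted p under 0.05, and 3 rose and 8 fell between control and washout, with a median of -0.10. Pfkp, the platelet form of phosphofructokinase, rose by 1.89 (limma adjusted p = 2.4e-07), while Pfkl, the liver form, fell by 0.84 (limma adjusted p = 2.3e-06). Eno2, which was among the 3 nearest genes to both Ddit4 and Adm, fell by 1.08 (limma adjusted p = 4.5e-07), and Pdk1, which keeps pyruvate out of mitochondria, fell by 0.69 (limma adjusted p = 7.1e-05), or by 0.37 with its probe sets averaged (limma adjusted p = 4.5e-04). Of the glycolysis list, 0% were called at 1 h and 57.9% between control and washout, beside 2.89% and 26.2% of all genes.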
